A study of Homo sapiens with 2 samples.

Results

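The EGR, IER and KLF early response genes examined here are EGR1, EGR2, EGR3, IER2, IER3, IER5, KLF2, KLF4, KLF6 and KLF10, 10 genes of which 9 were among the 19775 genes measured in the series. The members were selected on family and on their log2 differences between the arrays described here, which were already known, so that every difference below is a description. All probe sets that the platform annotation assigns to a member alone were taken, 17 in total, covering 9 of the 10 genes. No signal of EGR2 is reported because no such probe set was listed for it. RNA of A549/DDP, a cisplatin-resistant line whose progenitor is A549, and of A549, the parental human lung adenocarcinoma line, was hybridized on Affymetrix HG-U133 Plus 2.0 arrays, 1 array for each line. Both lines were cultured in the usual way and detached with trypsin before extraction of RNA with Trizol, and how the resistant line was selected and whether cisplatin was present at harvest are not given in the sources used here. The free-text note of the A549/DDP sample mentions overexpression of ZNF300, which its title does not. The title was followed.

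Early response genes are transcribed within minutes of a growth factor, cytokine or stress signal, without new protein synthesis, and their mRNAs decay quickly. EGR1, EGR2 and EGR3 encode zinc-finger activators that bind GC-rich DNA and are switched on mainly through ERK, ternary complex factors and the serum response factor SRF, which binds the CArG box. IER2, IER3 and IER5 share a name for their early induction rather than a zinc finger, and among them IER3 affects cell survival and IER5 acts on the heat shock factor HSF1. KLF2, KLF4, KLF6 and KLF10 are Kruppel-like factors, with zinc fingers that recognize CACCC and GC boxes, and are often linked to restraint of proliferation and to differentiation. In epithelial cells, EGR1 and the KLF genes respond to serum, wounding and transforming growth factor beta.

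Promoter sequences are shown because the background above ties induction of these genes to elements near the start. RefSeq windows (GRCh38.p14) were used for 6 of the 9 measured members, EGR1, IER2, IER5, KLF2, KLF4 and KLF6. No window of EGR3, IER3 or KLF10 was used, so that their motifs are not described. The 250 bases before the annotated start are given 5′ to 3′ for EGR1, which had the lowest difference of the members, for KLF2, which was lower by a smaller amount, and for KLF6 and IER2, which differed little. They lie at chr5:138465229-138465478 on the plus strand, chr19:16324576-16324825 on the plus strand, chr10:3785210-3785459 on the minus strand and chr19:13150161-13150410 on the plus strand. Capitals mark the CArG box (AT-rich in the middle) and the EGR site GCGNGGGCG (GC-rich).
EGR1: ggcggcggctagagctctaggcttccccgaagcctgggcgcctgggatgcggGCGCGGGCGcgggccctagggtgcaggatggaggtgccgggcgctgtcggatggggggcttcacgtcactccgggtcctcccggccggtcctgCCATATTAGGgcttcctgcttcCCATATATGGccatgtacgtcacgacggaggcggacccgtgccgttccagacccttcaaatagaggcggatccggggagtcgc
KLF2: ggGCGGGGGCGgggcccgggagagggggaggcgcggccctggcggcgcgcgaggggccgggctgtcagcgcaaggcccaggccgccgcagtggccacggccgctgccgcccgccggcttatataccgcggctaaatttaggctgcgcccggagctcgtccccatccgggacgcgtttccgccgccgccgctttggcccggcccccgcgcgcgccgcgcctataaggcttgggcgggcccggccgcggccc
KLF6: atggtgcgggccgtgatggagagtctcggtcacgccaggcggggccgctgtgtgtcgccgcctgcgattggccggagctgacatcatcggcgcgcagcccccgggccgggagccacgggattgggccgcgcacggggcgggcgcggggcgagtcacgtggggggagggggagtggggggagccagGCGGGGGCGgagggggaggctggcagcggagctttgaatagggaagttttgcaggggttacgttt
IER2: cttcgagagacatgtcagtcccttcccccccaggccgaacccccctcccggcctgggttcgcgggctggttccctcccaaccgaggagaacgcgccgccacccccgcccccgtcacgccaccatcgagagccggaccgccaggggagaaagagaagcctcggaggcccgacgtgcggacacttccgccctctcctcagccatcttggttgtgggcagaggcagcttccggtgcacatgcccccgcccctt

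In the EGR1 promoter, CArG boxes were matched at -105 to -96 and at -83 to -74 from the start, taken as base 0. Among 35097 promoter windows of 300 bases (250 before and 50 after the start), read on both strands, 1.29% held a CArG box, and 11 windows held at least 2. No CArG box was matched in the windows of IER2, IER5, KLF2, KLF4 or KLF6, nor in those of 28 other early response genes with a window. Boxes outside these windows, or with letters other than CC, 6 of A or T, and GG, were not searched for. EGR2, which was not measured, held a CArG box at -71 to -62 from an annotated start. The EGR site was matched in 4 of the 6 members, EGR1, KLF2, KLF4 and KLF6. It was matched in 9.43% of all windows and in 4 of the 28 other early response genes. Here and below, shares of all windows count windows (35097 windows of 27305 genes), while a gene counts once if any of its windows matched. The KLF and SP box CCNCNCCC was matched in 5 of the 6, all but IER5, against 56.2% of all windows and 24 of the 28. In each of the 4 member promoters with an EGR site it overlapped that site. The core TGACG of the cyclic AMP response element, which lies inside the full element, was matched in EGR1, IER2 and KLF4. It was matched in 24.5% of windows and 16 of the 28. The full element TGACGTCA (1.85% of windows, 4 of the 28) and TATAAA (11.5%, 12 of the 28) were matched in none of the 6. In the 6 members, the 250 bases before the start were 68.4% (EGR1) to 80.0% (KLF2) G or C, against a median of 58.0% over all windows. The motif shares were not adjusted for this. Motif matches are letters in a window and do not show that a factor binds there.

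**Figure D1:**
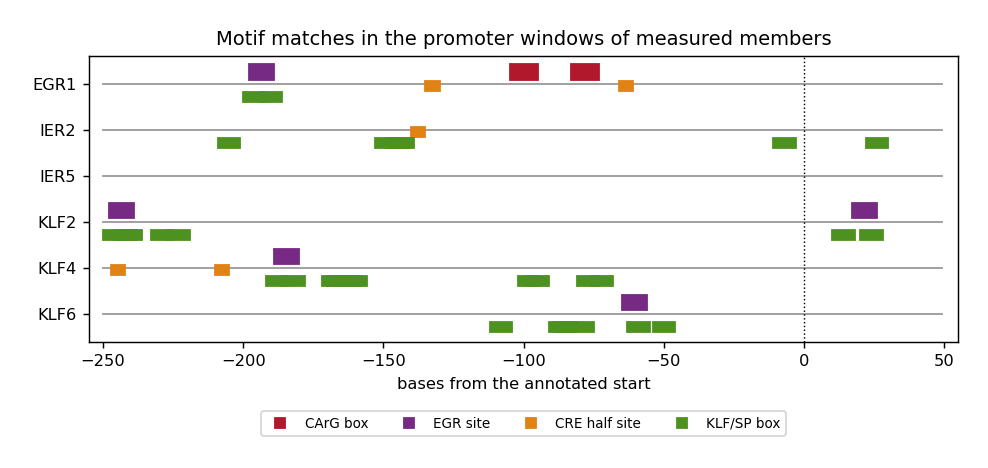
Positions of motif matches in the promoter windows of the 6 measured members with a window (x axis, bases from the annotated start; each row is a gene; boxes are matches on either strand). EGR1 holds the only CArG boxes, at -105 to -96 and -83 to -74, and EGR sites stand in EGR1, KLF2, KLF4 and KLF6.

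Members also shared a short genomic extent. The 9 measured members spanned 1349 to 9214 bp, with a median of 4501 bp, against a median of 28847 bp over 13144 expressed genes with a span. IER3 was the shortest and KLF6 the longest. Of the expressed genes, 21.1% were no longer than KLF6, and the median log2 difference between the arrays over those 2767 genes was 0.01, with 2.57% at least 3-fold lower.

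The deposited values are log2 signals, and each gene is given by its brightest probe set, by the mean over both arrays. A value under the array's median (the floor, 6.18 on the array labelled A549/DDP and 6.22 on the A549 array) was raised to it, and the difference is then a bound. A gene over the floor on at least 1 array is called expressed. Differences are A549/DDP minus A549 on the log2 scale, and 3-fold is the threshold of the study. ZNF300, the gene that the study selected as higher in A549/DDP, was lower on the array that carries this label, opposite to the study, so that directions below are those of the labelled arrays. If the labels of the arrays were exchanged, every direction given here would turn, and lower would read as higher, which was not tested. Its log2 signal was 5.76 on the array labelled A549/DDP and 7.59 on the A549 array, a difference of -1.83 before the floor, inside the central 95% of the 2000 probe sets nearest in mean signal (-1.90 to 1.86). Because no array was repeated, no p-value was computed. The 9 probe sets of bacterial transcripts added at hybridization gave a scale for technical scatter, with differences from -0.27 to -0.09 (median -0.16), and the 12 probe sets of poly(A) control transcripts gave -0.53 to 0.04. Within a gene, the SD of the difference over its probe sets had a median of 0.38 (6570 genes). The ratio of 3′ to 5′ signal was 1.02 for GAPDH and 3.70 for ACTB on the array labelled A549/DDP, and 1.05 and 4.21 on the A549 array. Of the epithelial markers, KRT7, KRT8 and KRT18 were above the floor on both arrays, and KRT19 on neither. CDH1 had 2.52 on the array labelled A549/DDP and 7.30 on the A549 array, and EPCAM had 4.68 on the array labelled A549/DDP and 7.05 on the A549 array, so that both were under the floor on the array labelled A549/DDP alone. Of 6 measured genes listed as high in A549, AKR1B10, AKR1C1, AKR1C2, ALDH3A1 and NQO1 were above 11 on the log2 scale on both arrays. ALDH1A1, of the same list, was under the floor on both. Its log2 signal was 4.28 on the array labelled A549/DDP and 0.96 on the A549 array. Of 9 measured markers of other cell types, 7 were under the floor on both arrays, the exceptions being CD3E and COL1A1. The part of such differences in the results below was not tested.

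EGR1 and EGR3 were far lower on the array labelled A549/DDP, while the IER and KLF members lay within 3-fold. Among the 9 measured members, 2 were lower by 3-fold or more, beside 2.18% of the 13159 expressed genes, and 0 were higher by 3-fold or more, beside 2.14%. By any amount, 8 of the 9 were lower and 1 was higher, beside 49.6% and 50.4% of the expressed genes, and among the 8 the sign of IER2 and IER5 turned under another scaling. In all, 287 expressed genes were past 3-fold in the lower direction and 281 in the higher one, a split that became 223 and 354 after scaling to the hybridization controls, which moved the median of all expressed genes to 0.165. The members' median difference was -1.25, and that of all expressed genes 0.00. The members' median depended on the probe sets and the floor, and was -0.85 with the dimmest probe set of each gene, -0.72 with the median over probe sets, -0.60 with the floor at the 75th percentile and -0.092 over the 5 members left without _x_at and _s_at probe sets. Because the members were chosen with these values in view, nothing was read from these shares. The plot of member signals shows all 17 probe sets.

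**Figure D2:**
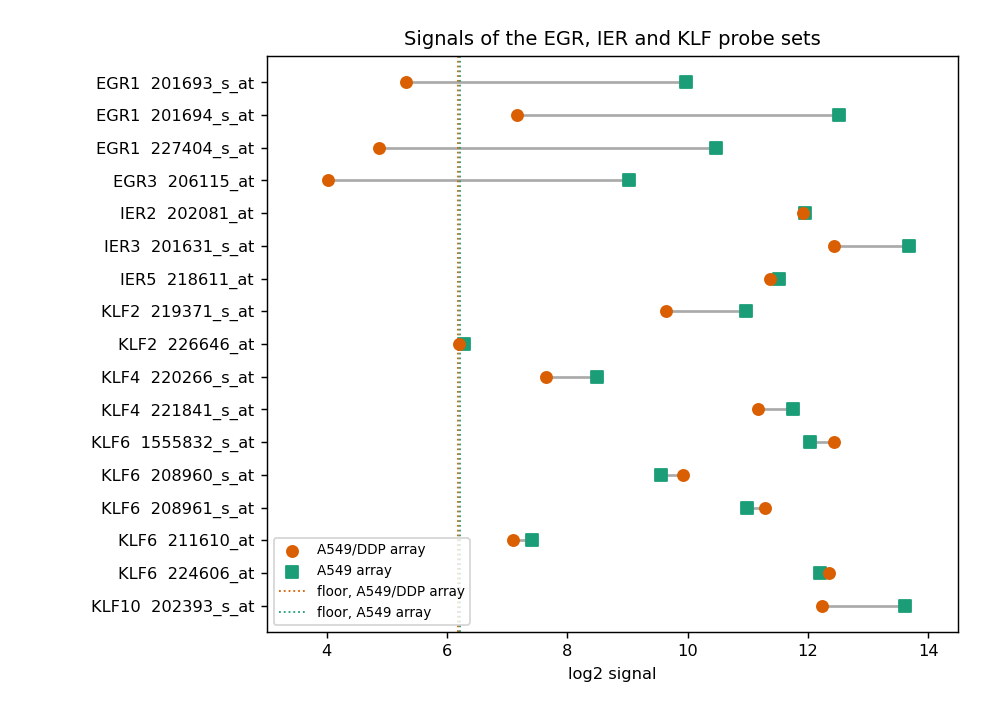
Log2 signals of the 17 probe sets of the 9 measured members (circles, A549/DDP array; squares, A549 array; 1 array for each line; dotted lines, the floor of each array). The circles of EGR1 and EGR3 lie far to the left of their squares, those of IER2 and IER5 almost on them, and those of 4 of the 5 KLF6 probe sets to the right.

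EGR1, the founding member of its family and a direct target of ERK signalling, was read by 3 probe sets. The brightest, 201694_s_at, had a log2 signal of 7.17 on the array labelled A549/DDP and 12.52 on the A549 array, a difference of -5.35 or 40.8-fold lower. In linear signal this was 143.7 on the array labelled A549/DDP and 5864 on the A549 array. All 3 EGR1 probe sets were lower, and 2 of them were under the floor on the array labelled A549/DDP, where only a bound is known. Probe set 201693_s_at had 5.31 on the array labelled A549/DDP and 9.97 on the A549 array, and 227404_s_at had 4.87 on the array labelled A549/DDP and 10.46 on the A549 array. Before the floor, the differences were -4.66 and -5.60. With values under the floor raised to it, EGR1 ranked 2 from the lowest among the 13159 expressed genes, some of which are held at a bound and may lie lower. Among the 2000 single-gene probe sets nearest in mean signal, the central 95% of differences ran from -1.59 to 1.51 for the brightest probe set, far short of its value. In RNA of a whole culture, fewer cells with EGR1 mRNA and less of it in each cell cannot be told apart.

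EGR3, a family member also induced by antigen receptor signals, was read by 1 probe set, 206115_at. Its log2 signal was 4.02 on the array labelled A549/DDP and 9.03 on the A549 array. The value on the array labelled A549/DDP was under the floor, so that EGR3 was at least 7.17-fold lower (a difference of -2.84), and without the floor the difference was -5.004. Thus EGR3 was measured on the A549 array and is given only as a bound on the other. The size of its difference therefore depends on the floor.

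The IER genes were split. IER3, an early response gene that modulates apoptosis, had a log2 signal of 12.43 on the array labelled A549/DDP and 13.69 on the A549 array, 2.38-fold lower. It was bright on both arrays, and its difference of -1.25 lay inside the central 95% of probe sets of like signal, from -1.33 to 1.11. IER2, a nuclear protein induced by serum, had 11.92 on the array labelled A549/DDP and 11.96 on the A549 array, a difference of -0.03. IER5, a regulator of HSF1 through the phosphatase PP2A, had 11.37 on the array labelled A549/DDP and 11.51 on the A549 array, a difference of -0.15. Both differences were smaller in size than the median of the hybridization controls. Scaled to those controls, a choice made after the data had been examined, IER2 (0.13) and IER5 (0.01) turned to the other sign, though both stayed under the median of all expressed genes at 0.165, and IER2 also did so after median centring (0.01).

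KLF10, a gene induced early by transforming growth factor beta, was the KLF member with the lowest difference. Its single probe set, 202393_s_at, had 12.23 on the array labelled A549/DDP and 13.61 on the A549 array, 2.60-fold lower (-1.38). This value lay just under the central 95% of probe sets of like signal, from -1.33 to 1.11.

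KLF2, known for its induction by shear stress in endothelium, was read by 2 probe sets that differed. The bright one, 219371_s_at, had 9.63 on the array labelled A549/DDP and 10.97 on the A549 array, 2.52-fold lower (-1.34). The other, 226646_at, had 6.19 on the array labelled A549/DDP and 6.28 on the A549 array, a difference of -0.09 with both values barely over the floor. The size of the KLF2 difference thus rests on its bright probe set.

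KLF4, a regulator of epithelial differentiation and a reprogramming factor, was lower by both of its probe sets. Probe set 221841_s_at had 11.16 on the array labelled A549/DDP and 11.76 on the A549 array (1.51-fold lower), and 220266_s_at had 7.64 on the array labelled A549/DDP and 8.49 on the A549 array (1.80-fold lower). Both differences lay inside the central 95% of probe sets of like signal.

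KLF6, a widely expressed factor that activates CDKN1A, was the only member not lower by its brightest probe set. That probe set, 224606_at, had 12.36 on the array labelled A549/DDP and 12.19 on the A549 array, a difference of 0.16. On the array labelled A549/DDP, 4 of its 5 probe sets had the higher value, by 0.16 to 0.40, and the dimmest, 211610_at, was lower, with 7.09 on the array labelled A549/DDP and 7.41 on the A549 array. All 5 differences were within the central 95% of probe sets of like signal.

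**Figure D3:**
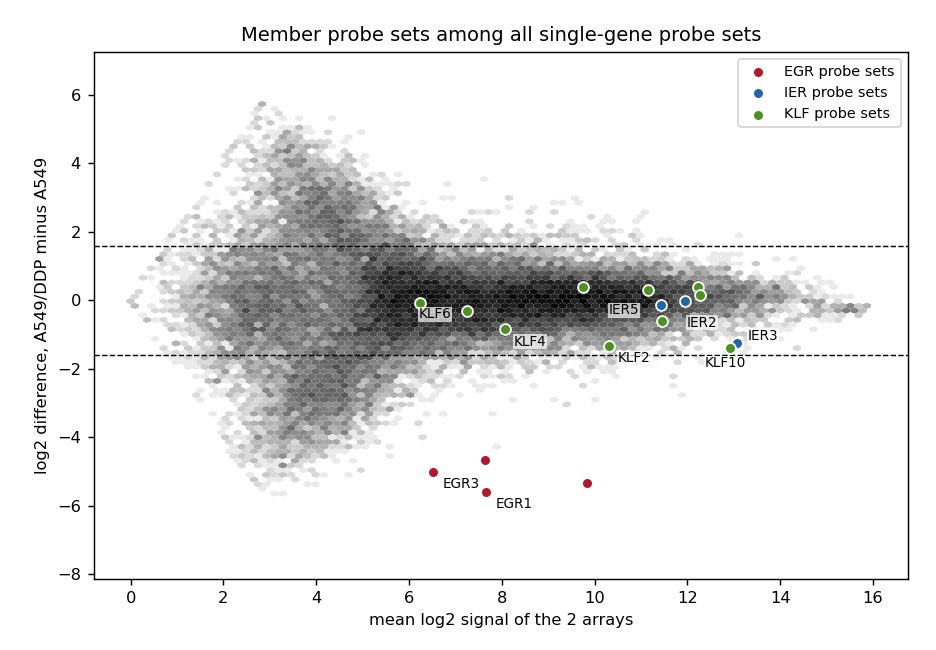
Log2 difference (A549/DDP minus A549, y axis) against the mean log2 signal of the 2 arrays (x axis) for all single-gene probe sets (grey, darker where more lie) and the 17 member probe sets (coloured by family). No floor was applied, and dashed lines mark 3-fold. The 4 EGR probe sets lie between -5.60 and -4.66, below all other members.

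At the level of probe sets, 4 of the 17 were lower by 3-fold or more, beside 5.97% of 25078 single-gene probe sets above the floor on at least 1 array, and 0 were higher by that much, beside 5.4%. These 4 were the probe sets of EGR1 and EGR3. In all, 13 of the 17 were lower, and the 4 that were higher were all of KLF6. Of the 17, 14 were above the floor on both arrays, and 11 are of the _s_at kind, which match several transcripts. By the brightest probe set, the differences ran from 40.8-fold lower in EGR1 to 1.12-fold higher in KLF6.

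No expressed gene in the windows beside EGR1 and EGR3 was at least 3-fold lower, beside 2.18% of all expressed genes. By any amount, 49.6% of all expressed genes were lower, with a median of 0.00, and the EGR3 window leaned lower than that. Whether a region of the chromosome was involved was not tested. Over the 10 expressed genes on each side, the median difference was 0.21 for EGR1 on chromosome 5, with 7 of 20 lower and 0 at least 3-fold lower, and -0.30 for EGR3 on chromosome 8, with 14 of 20 lower and 0 at least 3-fold lower. For the other measured members, medians ran from -0.37 beside KLF6 on chromosome 10, itself slightly higher, to 0.23 beside IER5 on chromosome 1. In none of the 9 windows was a neighbour at least 3-fold lower.

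Regulators known to act on these promoters were read as mRNA only, and their activity was not tested. Of 6 serum response sensors, 0 passed 3-fold in either direction, beside 2.18% of all expressed genes lower and 2.14% higher. Their median difference was 0.30. SRF itself had a log2 signal of 7.75 on the array labelled A549/DDP and 9.28 on the A549 array, 2.89-fold lower by its 1 probe set. The SRF coactivator MRTFA was 1.93-fold higher, with 1 of its 3 probe sets lower. MRTFB had a log2 difference of 0.59, with 1 of its 2 probe sets lower. The ternary complex factors ELK3 (0.62) and ELK4 (-0.50) went opposite ways, and ELK1 (0.02) hardly differed. Of 6 genes of the ERK5 and MEF2 axis, which induces KLF2 and KLF4 in endothelium, 0 passed 3-fold, with a median of -0.04. MAPK7, which encodes ERK5, was 2.46-fold higher, its kinase MAP2K5 2.24-fold lower, MEF2D 1.91-fold lower and MEF2C 1.72-fold higher.

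Most of the other early response genes listed were lower too. The list was drawn up with earlier results of these data known, so that nothing was read from its shares. Of 33 expressed genes, 14 were at least 3-fold lower, 42.4% of them, beside 2.18% of all expressed genes. In the higher direction 0 were past 3-fold, beside 2.14%, and the list median was -1.40. The members had 2 of 9, 22.2%, at least 3-fold lower. The nuclear receptors NR4A2 (70.8-fold), NR4A1 (at least 18.9-fold) and NR4A3 (at least 11.9-fold) were lower, as were the AP-1 partners FOSB (at least 9.90-fold) and FOS (at least 4.96-fold), ATF3 (17.8-fold) and MAFF (4.48-fold). The secreted factors CCN2 (16.5-fold), CXCL8 (14.7-fold), IL6 (8.88-fold) and CCN1 (5.16-fold) were lower, and so were CSRNP1 (7.04-fold), a nuclear factor induced by AXIN1, the ERK phosphatase DUSP1 (4.38-fold) and the stress gene GADD45B (3.57-fold). Not all of the list was lower: the kinase PIM1 was 2.60-fold higher and NFKBIZ 1.59-fold higher, while MYC (-0.26), MCL1 (-0.22) and TNFAIP3 (-0.27) lay near 0. With 1 array for each line, the state of the cells at harvest and the line itself cannot be told apart.

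None of the 4 EGR relatives and corepressors was at least 3-fold lower, and 1 was at least 3-fold higher, beside 2.18% and 2.14% of all expressed genes. EGR4 had a difference of 0.20 by its 1 probe set above the floor. The corepressors NAB1 (-0.62) and NAB2 (-0.10), which bind EGR proteins, were within 3-fold, NAB2 being itself an EGR1 target. WT1, whose zinc fingers bind a related GC-rich site, was 10.8-fold higher, with a log2 signal of 9.67 on the array labelled A549/DDP and 6.24 on the A549 array. The value on the A549 array was barely over its floor of 6.22, so that the size of this difference is uncertain. Of 9 expressed genes described as EGR1 targets, 0 were at least 3-fold lower or higher, beside the same 2.18% and 2.14%. Their median was -0.27. The growth factor PDGFA was 2.98-fold higher, the stress cytokine GDF15 2.79-fold lower, tissue factor F3 2.45-fold lower and the growth factor PDGFB at least 1.36-fold lower.

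Among 15 other expressed KLF and SP genes, 0 were at least 3-fold lower or higher, beside 2.18% and 2.14% of all expressed genes. Their median was 0.01. KLF5, an intestinal and airway epithelial factor, had a brightest probe set that was 2.17-fold lower, and that of KLF9, a glucocorticoid-induced gene, was 2.08-fold lower. All their probe sets above the floor, 2 for KLF5 and 4 for KLF9, were lower. SP8 was at least 2.29-fold higher and KLF16 1.71-fold higher. Of 4 expressed genes described as KLF targets, THBD, which encodes the anticoagulant receptor thrombomodulin and is activated by KLF2 and KLF4 in endothelium, was 3.09-fold higher by its brightest probe set, with all 3 probe sets above the floor higher. The cell cycle inhibitor CDKN1A was 1.66-fold lower, the TGF-beta inhibitor SMAD7 1.81-fold lower and CDH1 at least 2.17-fold lower. NOS3, S1PR1 and ALPI were under the floor on both arrays.

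Factors that bind or trim short-lived mRNAs were within 3-fold by their own mRNA, and decay itself was not tested. Of 10 expressed genes for factors that bind or trim AU-rich mRNAs, 0 passed 3-fold, beside 2.18% of all expressed genes lower and 2.14% higher. Their median was 0.26, against 0.00 over all expressed genes, and 3 of the 10 were lower. HNRNPD was 1.85-fold higher and ELAVL1 1.40-fold higher, though 2 of 6 and 1 of 4 of their probe sets above the floor were lower. ZFP36L2 was 1.54-fold lower and TIA1 1.40-fold higher. ZFP36, itself an early response gene, differed by 0.18. Of 6 expressed genes of the IER5 and HSF1 axis, 0 passed 3-fold, with a median of 0.12. The chaperone HSPH1 was 2.09-fold higher, DNAJB1 1.16-fold lower, HSF1 1.15-fold higher and the catalytic subunit PPP2CA 1.13-fold higher.

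**Figure D4:**
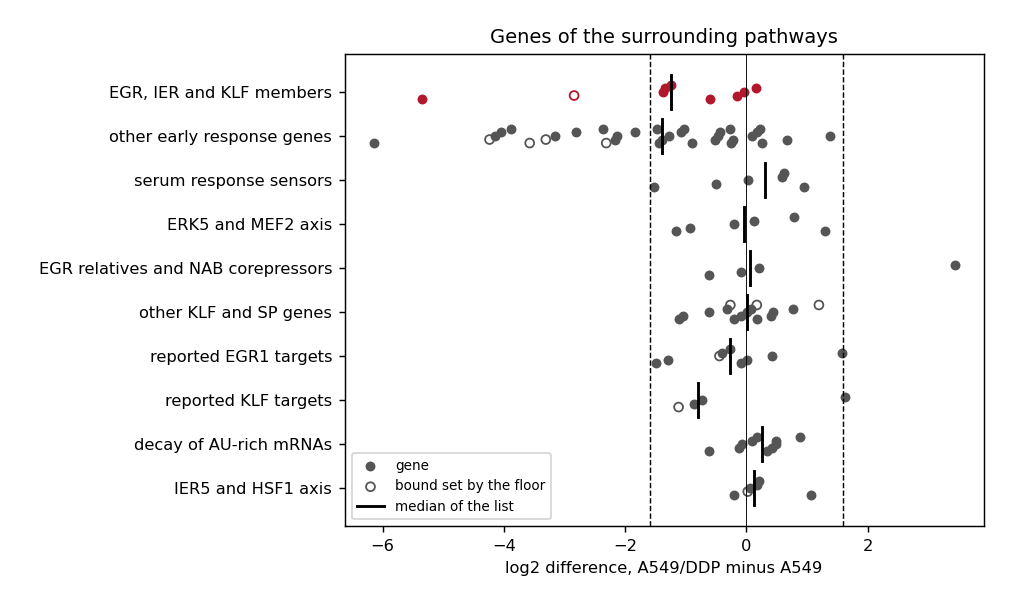
Log2 differences (A549/DDP minus A549, x axis) of the expressed genes in the members and the pathway lists (rows; marker lists are not shown; filled points, measured on both arrays; open points, bounds set by the floor; black bars, list medians; dashed lines, 3-fold). The members have a median of -1.25 and the other early response genes -1.40, while those of the remaining lists shown lie between -0.80 and 0.30.

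The members' differences were compared over the processing choices. EGR1 was at least 3-fold lower in all 10 settings that gave it a value, the reported one included, from -5.35 to -3.79, where the values of smallest size (-4.28, -3.88 and -3.79) are bounds set by the floor. EGR3 was so in 10 of 11, and with the floor at the 75th percentile its bound was -0.39. IER3 (-1.25 to -1.09), KLF4 (-0.85 to -0.44) and KLF10 (-1.39 to -1.22) kept their sign and stayed within 3-fold. KLF2 ran from -1.34 to -0.09, KLF6 from -0.31 to 0.32, IER2 from -0.06 to 0.13 and IER5 from -0.17 to 0.01.

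**Figure D5:**
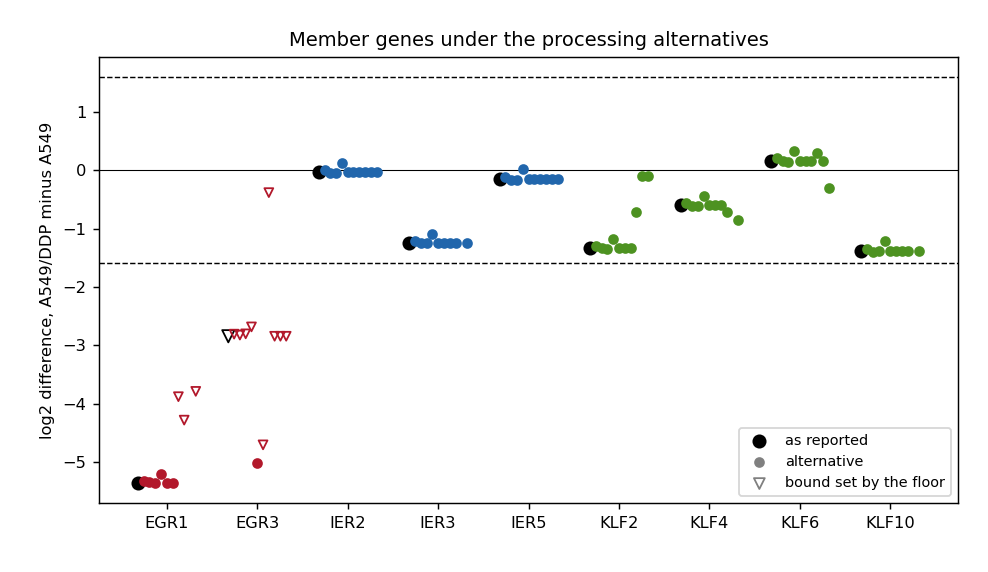
Log2 difference (A549/DDP minus A549, y axis) of each measured member (x axis) as reported (black) and under the alternatives (coloured by family; open triangles are bounds set by the floor; dashed lines, 3-fold). EGR1 stays between -5.35 and a bound of -3.79, EGR3 has a bound of -0.39 at the highest floor, and the remaining members lie within 3-fold throughout.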

How the data were processed

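Total RNA of A549/DDP and A549 was hybridized on Affymetrix HG-U133 Plus 2.0 arrays, 1 for each line. The authors deposited log2 values for 54675 probe sets. MAS5 and affy are listed in the processing notes of the submitters, while the methods name SCAN with UPC. The mean signal after trimming 2% at each end was 500.1 on both arrays, a property of MAS5 scaling, so that the values were used as log2 MAS5 signals, which scatter widely at low brightness. A second deposited table holds 4 columns of signals and calls, named for A549-LV5 and A549-ZNF300, and the authors' fold columns. Neither was used, since the names match no sample here and the folds are the authors' own comparison.

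A single gene was listed for 41097 probe sets, several for 1801 and none for 11777, and 41043 of the single-gene ones were matched to current RefSeq symbols. Control probe sets (62) were left out. The floor was the array's median. Named genes are all members with all their probe sets, ZNF300, and in each list the genes at least 3-fold apart or, where fewer than 4 were, the next by size of difference, beside a few genes chosen after their values were seen. Members and lists were chosen with earlier results of these data known. Promoter windows were those of RefSeq. The planned protein comparison was not run. The steps were tested on simulated data. Alternatives were 4 normalizations, among them scaling to hybridization controls, 3 floor settings, 3 choices of probe set, thresholds of 2-fold and 5-fold, and the mean over members. Python 3.11.15, numpy 2.4.6, pandas 2.3.3 and statsmodels 0.14.6 (loess, span 0.3, 3 iterations) were used.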

Additional observations from a re-analysis of the deposited data

How the results depend on the processing

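The members' median of -1.25 was -0.60 with the floor at the 75th percentile, -0.72 with the median over probe sets, -0.85 when the dimmest measured probe set stood for each gene and -0.092 without _x_at and _s_at probe sets, a setting that leaves 5 members. Members at least 3-fold lower numbered 2 as reported, beside 2.18% of all expressed genes. They numbered 1 with the floor at the 75th percentile, beside 1.46%, and 1 of 5 without _x_at and _s_at probe sets, beside 2.27%. At 2-fold, 5 members were lower, beside 7.40%. Probe sets at least 3-fold lower numbered 4 as reported, beside 5.97% of all single-gene probe sets above the floor. Without _x_at and _s_at probe sets there was 1, and 7 were lower at 2-fold, settings whose share over all probe sets was not computed. The count of members higher past the threshold was 0 in every setting, beside shares of all genes from 0.60% (5-fold) to 8.70% (no floor). List genes at least 3-fold lower numbered 14 as reported and 20 without the floor, beside 2.18% and 9.79% of all genes. They numbered 10 with the floor at the 75th percentile, beside 1.46%, and 10 without _x_at and _s_at probe sets, beside 2.27%.

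Without the floor, 1935 of 19775 genes were at least 3-fold lower and 1720 higher, against 287 and 281 of 13159 as reported. The counts were 860 and 673 of 17815 with the floor at the 25th percentile, and 122 and 127 of 8369 at the 75th. Of 13159, they were 974 and 807 at 2-fold and 74 and 79 at 5-fold. Scaling to the hybridization controls, added after the data had been examined, raised the median of all expressed genes to 0.165 and gave 223 lower and 354 higher. No paired analysis was possible because each line has 1 array, and the difference between the lines has no replicate check. Array number limits the precision throughout. Values under the floor give bounds only, which among the members concerns EGR3 and 2 of the 3 EGR1 probe sets on the array labelled A549/DDP, and in the lists the genes given as at least a fold.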
